A study of Bos indicus with 8 samples.

Results

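The cells described here are cumulus cells cultured without adenosine, the control side of a study that set adenosine-treated against untreated cumulus cells on 2-colour arrays. The control reading was taken from each of the 8 arrays, in the Cy3 wavelength where the control RNA carried Cy3 and in the Cy5 wavelength where it carried Cy5, and the 2 readings of each replicate number were averaged. This gave 4 control pools out of the 8 pools of the study. The other 4 pools, which received 3 mM adenosine, lay in the other channel of the same arrays and were not used.

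The cells were labelled as Bos indicus and came from ovaries collected at a slaughterhouse. Cumulus-oocyte complexes were taken from follicles of 3 to 6 mm, and control and treated complexes alike were cultured for 6 h. Recombinant human FSH was present at 0.5 µg/ml in every pool. The medium was HEPES-buffered Tyrode lactate with pyruvic acid at 0.2 mM, oestradiol at 1 µg/ml, fetal bovine serum at 10% and the antibiotic gentamicin at 50 µg/ml. No pool without FSH was analysed here, so the levels describe FSH-exposed cells and measure no response to FSH. The labels give 10 per pool without saying of what. They call the pools biological replicates and do not say whether these came from separate animals. The p-values for pools therefore measure how far these 4 RNA pools lay apart relative to the 2 labellings of each.

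Cumulus cells are the granulosa cells that surround the oocyte and stay coupled to it through gap junctions. FSH, acting through its receptor and cyclic AMP, is known to maintain aromatase and inhibin expression in granulosa cells and to start cumulus expansion in cultured complexes, in which the cells lay down a hyaluronan matrix. Granulosa cells make oestradiol from androgens supplied by theca cells, so the androgen-forming enzyme CYP17A1 marks theca, and the LH receptor is gained late in follicle growth.

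A level is the log2 of the mean foreground minus the median local background, after each channel was scaled to the same 75th percentile, averaged over the 2 dyes. The median probe lay at 5.92 and the brightest at 15.18, above a floor of 5.30 in pool 1, 5.37 in pool 2, 5.63 in pool 3 and 5.52 in pool 4. A percentile places a probe among the 43794 gene probes, and a gene stands for its brightest probe. Percentiles order signals and not numbers of transcripts, since probes bind with different strength. Among the 4024 genes with several probes, the probes of a gene spanned a median of 1.73 log2 units. In bulk RNA, fewer cells of a type and less RNA per cell cannot be told apart.

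Filtering required a foreground at least 2 SD over the mean of the 153 negative control spots in both dyes of 3 or more pools, which left 30874 probes (70.5%). Of 15229 named genes, 11994 (78.8%) were kept. That bar was low: of 22 genes restricted to other organs, such as ALB of the liver and PRL of the pituitary, 20 also cleared it. A signal over 10 times the negative controls was reached by 25.2% of named genes and by 1 of those 22. Between 82.3% and 87.4% of probes were detected in the 4 Cy3 channels and 82.1%, 81.5%, 41.3% and 75.3% in the Cy5 channels of pools 1 to 4. The low share in pool 3 came from 1 negative control spot of 171 intensity units, where the next highest was 42.0. Without the highest negative spot of each channel the Cy5 shares were 79.1% to 82.6%.

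The 5 marker genes were detected in all 8 control channels. The FSH receptor FSHR read 9.88, 9.67, 8.29 and 8.56 in pools 1 to 4 (9.10 ± 0.79, SD, n = 4), at percentile 87.2. The aromatase gene CYP19A1 read 9.61, 8.70, 7.79 and 8.13 (8.56 ± 0.80, SD, n = 4), at percentile 84.1. Both were highest in pool 1 and lowest in pool 3. The pools differed beyond the spread between labellings for both genes (limma F test, Benjamini-Hochberg adjusted p = 2.1e-06 for FSHR and 4.7e-06 for CYP19A1). The 2 dimmer probes of CYP19A1 also read lowest in pool 3.

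The inhibin alpha subunit INHA read 13.42, 13.36, 12.70 and 12.52, at percentile 98.8, with pools 1 and 2 above pools 3 and 4 (limma adjusted p = 0.00012). INHBA, the beta A subunit shared by inhibin A and activin A, read 14.91, 14.93, 15.00 and 14.98, at percentile 99.96, and was among the 20 brightest named genes. Its pools did not pass the test (limma adjusted p = 0.69), but its spot lay near the top of the scale in 6 of 8 channels, as described with the brightest probes below. HAS2, the hyaluronan synthase of cumulus expansion, read 12.34, 11.10, 11.40 and 11.32, at percentile 96.6. Pool 1 stood above the other pools, and the HAS2 pools differed (limma adjusted p = 1.3e-05).

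CYP17A1 and the LH receptor gene LHCGR stayed at the bottom of the scale. CYP17A1 read 5.37, 5.48, 5.70 and 5.66, at most 0.14 above the floor of its pool, and LHCGR read 5.42, 5.56, 5.63 and 5.58, at most 0.19 above it. CYP17A1 was detected in 4 of 8 channels and LHCGR in 3, and both LHCGR probes were dim. The signal of each was 1.3 times the negative controls.

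**Figure D1:**
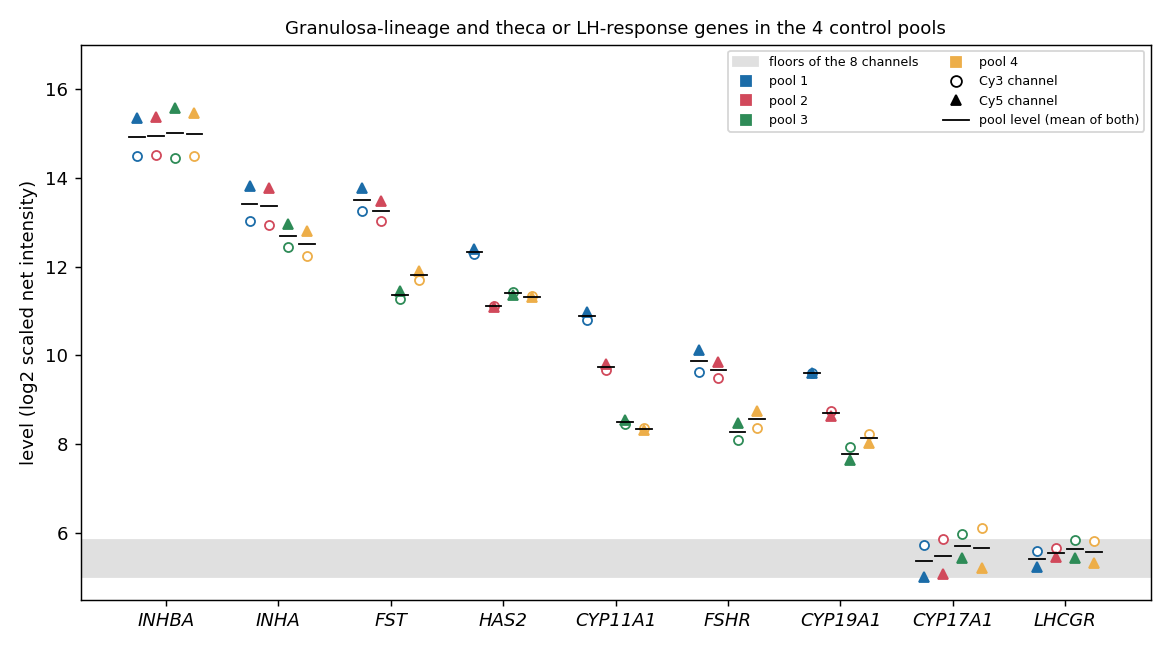
Levels of 9 genes (x axis) in log2 scaled net intensity (y axis), with an open circle for each Cy3 channel, a filled triangle for each Cy5 channel, a black bar for the pool level and one colour per pool. INHBA sits near 15 in every pool, FSHR and CYP19A1 are highest in pool 1, and CYP17A1 and LHCGR lie in the grey band of the channel floors.

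The wider list of FSH response and granulosa identity genes was bright. Of its 14 genes, 12 exceeded 10 times the negative controls, against 25.2% of all named genes, and the median percentile was 96.0 against 62.4. SERPINE2, a protease inhibitor of granulosa cells, reached percentile 99.9. The activin-binding protein gene FST read 13.51, 13.25, 11.37 and 11.80, and the cyclin gene CCND2 13.45, 13.01, 12.22 and 12.36. In both, pools 1 and 2 lay above pools 3 and 4 without overlap. PAPPA, a protease that frees insulin-like growth factors, lay at percentile 49.5.

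Differences between pools were common on these arrays: 73.0% of 11970 named genes tested passed the pool test, and 19.0% passed it with a range over 1 log2 unit. The share passing followed brightness. In 10 bins of equal size, with kept probes ordered from dim to bright, 30.1% passed in bin 2, 63.0% in bin 5 and 95.7% in bin 9. The 73.0% is therefore not matched in brightness to a bright or a dim list. The median level of the FSH list, 11.27, lay in bin 10, where 93.3% passed. Of its 13 tested genes, 11 passed, 6 of them with a range over 1. Among those 11, 9 were highest in pool 1 and 7 lowest in pool 3. Over all named genes that passed, 26.7% were highest in pool 1, 28.9% in pool 2, 30.8% in pool 3 and 13.7% in pool 4, and 24.8% were lowest in pool 3. These shares include dim genes, whose pool order can follow the unequal floors, lowest in pool 1 at 5.30 and highest in pool 3 at 5.63.

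Steroid synthesis genes were measured at intermediate levels. Of 10 genes with a probe, 5 exceeded 10 times the negative controls, and the median percentile was 82.0. FDX1, the electron donor of the mitochondrial steroid hydroxylases, was the brightest and read 11.31, 11.62, 11.65 and 11.28. CYP11A1, which cuts the cholesterol side chain, read 10.88, 9.74, 8.50 and 8.35, so pool 1 exceeded pool 4 by 2.53 log2 units (limma F test over pools, adjusted p = 1.2e-06). SCARB1, the lipoprotein receptor that delivers cholesterol, read 11.10, 9.05, 8.74 and 8.51. HSD3B1, which forms progesterone, read 8.73, 8.62, 7.14 and 7.35, and HSD17B1, which forms oestradiol from oestrone, 7.88, 7.69, 6.06 and 6.09. HSD17B7 of the same list ran the other way, at 8.75, 8.62, 9.58 and 9.46 (limma adjusted p = 1.0e-05).

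STAR, which moves cholesterol into mitochondria, followed another order and read 6.07, 7.91, 6.71 and 6.49, highest in pool 2. The next brightest STAR probe gave the same order of pool 2 over the others, at 5.88, 8.03, 6.06 and 5.98. The tested genes of the list had a median range of 1.82 log2 units between pools, against 0.48 over all kept genes, which include many dim ones. The median SD was 0.80, against 0.21 over all kept genes and 0.35 over kept genes above the 75th percentile. Of 9 tested, 8 passed the pool test, against 73.0% of all named genes tested. The median level of the list, 8.26, lay in bin 8 of the kept probes, where 93.8% passed. Among those 8, 5 were highest in pool 1, against 26.7% of all named genes that passed, and 2 in pool 3.

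In the inhibin, activin and BMP system, 15 of 26 genes exceeded 10 times the negative controls. BMP2, a ligand of the BMP receptors, read 13.75, 13.79, 14.19 and 14.37, at percentile 99.6. The pseudoreceptor BAMBI, which dampens BMP and TGF-beta signals, lay at percentile 98.9, and ID2 at 99.4. The receptor BMPR1A read 9.57, 10.14, 9.65 and 10.12. AMH, made by granulosa cells of growing follicles, read 7.99, 7.57, 6.49 and 6.56, while its receptor AMHR2 lay at most 0.07 above the floor in any pool. The list did not share 1 pool order: among its 19 genes that passed the pool test, the highest pool was pool 1, 2 and 3 for 5 genes each and pool 4 for 4.

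The matrix genes of cumulus expansion were split between bright and dim. ADAMTS1, a protease that cleaves versican, read 13.52, 12.88, 12.66 and 12.50, at percentile 98.6. TNFAIP6, which links protein chains to hyaluronan, read 11.52, 10.83, 12.01 and 11.46. VCAN, the versican core protein, read 11.06, 9.95, 8.60 and 8.76. PTX3, which cross-links the matrix, was dim in pools 1 and 2 at 6.80 and 6.72 and higher in pools 3 and 4 at 7.96 and 7.76. HAPLN1, the hyaluronan link protein, lay at most 0.07 above the floor in any pool. Of 13 genes tested, 11 passed the pool test, 7 with a range over 1, against 73.0% and 19.0% of all named genes tested. The median level of the list, 7.46, lay in bin 7 of the kept probes, where 90.4% passed. Pool 3 was highest for 6 of the 11 and pool 1 for 4, against 30.8% and 26.7% of all named genes that passed.

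EGF-like ligands and prostaglandin genes gave weaker signals. AREG, a ligand that carries the LH signal to cumulus cells, read 8.68, 7.41, 9.79 and 9.13, so that pool 3 exceeded pool 2 by 2.38 log2 units. BTC read 9.19, 9.36, 9.22 and 9.65, and the receptor EGFR lay at percentile 69.4. PTGS2, the inducible cyclooxygenase, read 7.25, 7.51, 7.74 and 7.33, at percentile 75.7, and its other 2 probes were at or near the floor. Of the 11 prostaglandin genes, only the prostaglandin E synthase gene PTGES3 exceeded 10 times the negative controls, at percentile 97.8. The prostaglandin E2 receptor PTGER2 read between 6.51 and 6.59 in the 4 pools. In the prostaglandin list 4 of 11 genes passed the pool test, against 73.0% of all named genes tested. The list was dim, with a median level of 6.20. Around that level 45.2% of kept probes passed in bin 4 and 63.0% in bin 5.

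Transcription factors that define granulosa cells included bright and undetected probes. GATA4 read 11.73, 11.90, 11.35 and 11.60, and the nuclear receptor NR5A2 10.92, 10.96, 10.96 and 11.18. The progesterone receptor gene PGR, known as a gene that LH induces in granulosa cells, read 11.97, 11.63, 12.64 and 12.44, at percentile 97.8. FOXL2, a granulosa identity factor, read 5.48, 5.49, 5.66 and 5.57, at 1.3 times the negative controls, and NR5A1 read between 5.79 and 5.92. A single FOXL2 probe was named, and its dim signal is a measurement of that probe. The oestrogen receptor ESR1 was at the floor in every pool, and ESR2 read 6.52, 6.58, 5.88 and 6.02.

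Genes of contact between cumulus cells and the oocyte were led by adhesion genes. The gap junction gene GJA1 read 13.31, 13.11, 12.71 and 12.92. N-cadherin CDH2 lay at percentile 99.1 and beta-catenin CTNNB1 at 99.3, while E-cadherin CDH1 was at most 0.07 above the floor. GJA5, another connexin, had one of the wider ranges at 10.48, 9.07, 7.82 and 7.46. The receptor NPR2, which keeps cyclic GMP high in cumulus cells, read 6.97, 6.92, 7.54 and 7.50, and KITLG, the ligand for the oocyte receptor KIT, lay at percentile 51.5.

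The adenosine receptors were measured in cells that had received no adenosine. ADORA2A read 8.11, 7.77, 8.14 and 8.35 and ADORA2B 7.14, 7.35, 7.23 and 6.98, at 7.4 and 3.9 times the negative controls. ADORA1 and ADORA3 lay at percentiles 37.3 and 20.5. NT5E, which forms adenosine outside the cell, read 10.40, 10.50, 9.45 and 9.79, the kinase ADK 9.99, 10.20, 10.33 and 10.25, and the transporter SLC29A1 10.87, 10.33, 9.83 and 10.09. ADA, which deaminates adenosine, was at most 0.15 above the floor in any pool.

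Immediate early genes, the first genes that a stimulus induces, were high in the control cells. Of 22 with a probe, 13 exceeded 10 times the negative controls, and the median percentile was 93.3. NR4A1 read 14.79, 14.82, 14.82 and 15.00 and ATF3 14.13, 14.66, 13.16 and 14.20. Of 20 genes tested, 19 passed the pool test, 12 with a range over 1, against 73.0% and 19.0% of all named genes tested. The median level of the list, 10.43, lay in bin 10 of the kept probes, where 93.3% passed.

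Several of these genes alternated between pools. FOS read 13.43, 14.39, 13.53 and 14.33, FOSB 10.00, 11.44, 9.92 and 11.45, and JUN 7.82, 9.03, 7.42 and 8.46. Pools 2 and 4 lay above pools 1 and 3 for these 3 genes. They also did for the matricellular gene CYR61, at 12.31, 13.72, 12.95 and 14.17, and for KLF4, at 9.58, 10.34, 9.91 and 10.79, both chosen after their values were seen. A dimmer FOSB probe gave the same order, at 8.62, 9.32, 7.96 and 8.96. The dimmer FOS probe did not, at 7.25, 7.18, 7.46 and 7.64. EGR1 read 11.93, 12.47, 12.66 and 13.04, and DUSP1 was highest in pools 3 and 4, at 8.97, 8.56, 10.18 and 9.93. No common order held across the list. Among its 19 genes that passed the pool test, the highest pool was pool 1 for 3, pools 2 and 3 for 5 each and pool 4 for 6. The lowest was pool 4 for 1 gene and pools 1, 2 and 3 for 6 each. Across all kept genes, a gap over 1 log2 unit with pools 2 and 4 on top occurred for 3 of 11994 genes. These were the histone gene HIST3H2A with a gap of 2.02, FOSB with 1.43 and the GDNF receptor gene GFRA1 with 1.31.

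The 20 brightest named genes had mixed roles. They included LDHA, the lactate-forming dehydrogenase, the endoplasmic reticulum chaperone HSPA5 and protein disulphide isomerase PDIA6, the cytosolic chaperone HSP90AA1, the translation factor EIF1, the ribosomal proteins RPS2 and RPS3, the glucose transporter SLC2A3, the hypoxia factor HIF1A, the zinc transporter SLC39A8 and the small GTPase GEM, which read 15.12, 15.17, 15.25 and 15.18. INHBA, NR4A1, LAPTM4B, HNRPDL, AGPAT9, TP53BP2, OAT, HNRNPA3 and HNRNPH1 made up the rest. Many of these spots lay near the top of the scale, so their order among themselves was not measured. Of all named genes, 281 lay above the 99th percentile.

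Cytosolic ribosomal protein genes formed the brightest list. All 62 with a probe were kept, 61 exceeded 10 times the negative controls, and 34 lay above the 99th percentile. FAU was the dimmest of them at percentile 75.7. Of the 62, 49 (79.0%) passed the pool test, 19 with a range over 1. Over all named genes tested these shares were 73.0% and 19.0%, and 93.3% of probes passed in bin 10, the brightest. RPL8, whose values were seen before it was chosen, showed how far pools could differ within the list, at 13.62, 11.21, 10.93 and 11.12, with pool 1 alone high. RPL4 read 14.55, 14.50, 13.37 and 13.23.

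Glucose uptake and glycolysis genes had a median percentile of 98.3, and 13 of 16 exceeded 10 times the negative controls. LDHA read between 15.10 and 15.12 in the 4 pools. SLC2A1, a glucose transporter, read 14.03, 13.65, 12.45 and 12.60, the hexokinase HK1 10.77, 9.68, 8.62 and 8.45, and glucose phosphate isomerase GPI 11.70, 11.04, 9.13 and 9.06. The dimmer probes of SLC2A1 and GPI were lowest in pool 1, at 6.72, 8.80, 8.09 and 8.24 and at 5.97, 7.14, 6.27 and 6.35. The dimmer HK1 probe again had pools 1 and 2 on top, at 8.72, 8.73, 7.29 and 7.47. Of the 14 that passed the pool test, 7 were highest in pool 1 and 9 lowest in pool 3, against 26.7% and 24.8% of all named genes that passed. SLC2A4, the insulin-regulated transporter of muscle and fat, went the other way and read 5.39, 5.47, 8.87 and 8.34.

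Oxidative phosphorylation genes had a median percentile of 94.2, and 31 of 38 exceeded 10 times the negative controls. The complex I subunit NDUFA9 read 10.82, 11.04, 9.13 and 9.09, while NDUFA6 read 10.42, 10.24, 10.38 and 10.14. Antioxidant genes had a median percentile of 95.8, with the thioredoxin reductase TXNRD1 brightest, at percentile 99.8. The other TXNRD1 probe was at or near the floor in every pool, at percentile 19.5. GPX4, which reduces lipid peroxides, read 12.30, 11.78, 10.31 and 10.17. SOD1 read 11.50, 12.47, 11.49 and 11.61, with pool 2 above the rest. Catalase, CAT, read 10.82, 10.86, 11.39 and 11.73.

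Among chaperones, 14 of 16 exceeded 10 times the negative controls. HSPA8 read 14.73, 14.57, 14.49 and 14.54 and HSP90AB1 14.20, 13.02, 12.90 and 13.05, with pool 1 alone high and no call without it (limma adjusted p = 0.23). That retest left out the pool that stood apart, so it adds no support of its own. CALR, a calcium-binding chaperone of the endoplasmic reticulum chosen after its values were seen, read 14.43, 12.94, 11.79 and 11.93. The heat-inducible HSPA1A read 7.53, 8.33, 8.07 and 9.10, at percentile 82.0.

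Cholesterol synthesis genes had a median percentile of 90.8. The brightest HMGCS1 probe read between 11.57 and 11.71 in the 4 pools, and FDPS, a later step of the same route, read 12.45, 12.94, 10.79 and 10.73. Dimmer HMGCS1 probes also read higher in pools 1 and 2, at 7.72, 7.24, 7.09 and 7.08 and at 7.50, 7.43, 6.49 and 6.78. The dimmest HMGCS1 probe lay near the floor. Cell cycle genes were detected with a median percentile of 80.2. PCNA, the replication clamp, read 11.92, 12.32, 12.59 and 12.67, whereas the proliferation marker MKI67 read between 6.48 and 6.82. CCND1 was at most 0.02 above the floor in any pool. Among apoptosis genes, the death receptor FAS lay at percentile 99.2 and the survival factor MCL1 at 98.5, while BAX lay at 68.7.

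**Figure D2:**
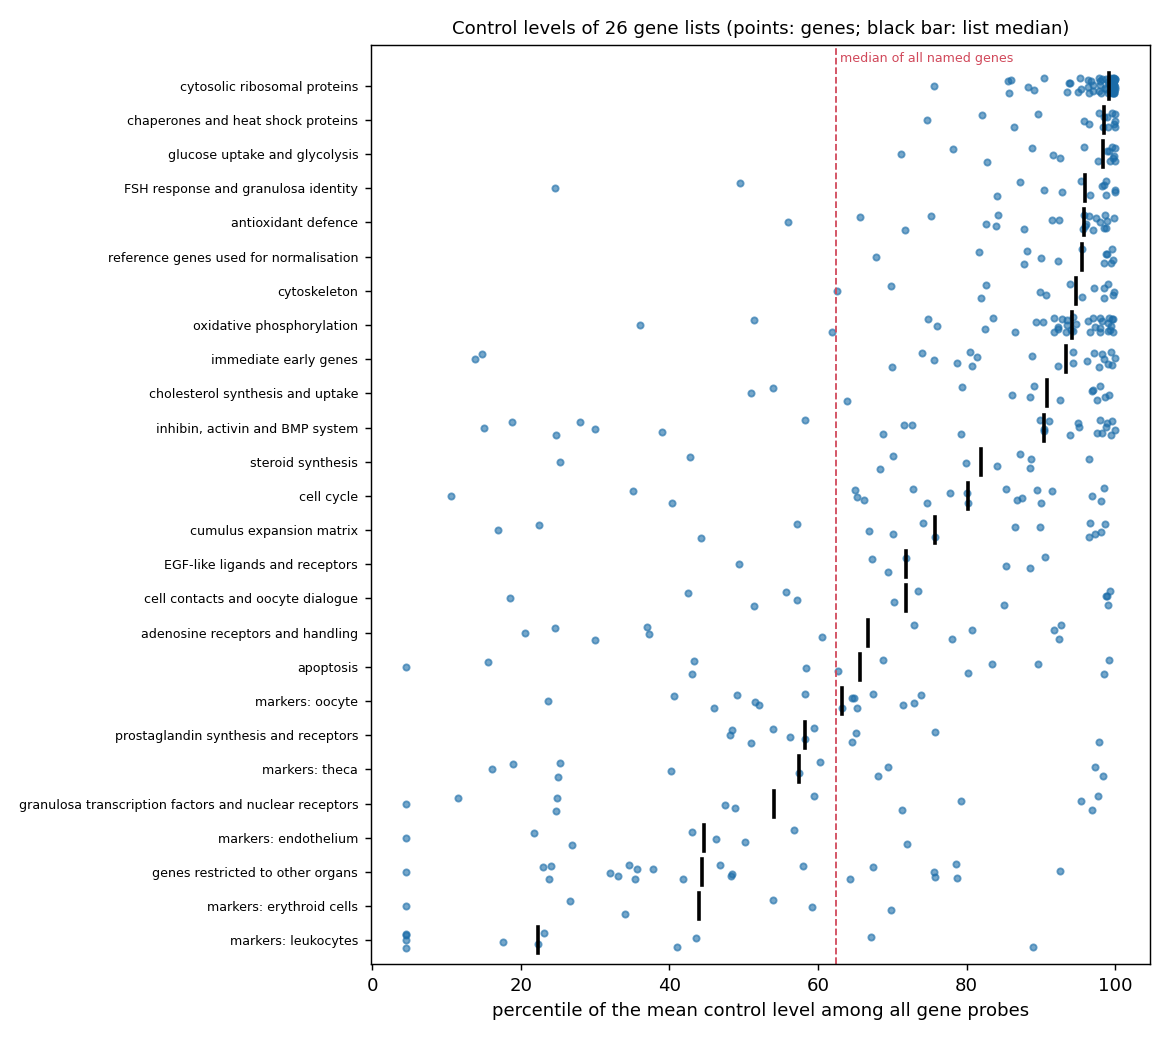
Percentile of the mean control level among all gene probes (x axis) for the genes of 26 lists (rows), one point per gene, with a black bar at the list median and a dashed line at 62.4, the median of all named genes. Ribosomal proteins, chaperones and glycolysis sit near the right edge with medians of 99.2, 98.5 and 98.3, and leukocyte markers are lowest with a median of 22.4.

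Markers of other cells of the follicle were mostly dim, with a few bright exceptions. Of 11 theca and stroma markers, 2 exceeded 10 times the negative controls: the proteoglycan gene LUM read 12.19, 11.79, 11.79 and 11.89, and the smooth muscle actin gene ACTA2 13.15, 13.33, 11.88 and 12.22. Their companions in the list were low, with COL1A2 at most 0.07 above the floor and TAGLN and THY1 at percentiles 19.0 and 25.0. The summed scaled intensity of the 11 was 14384, 14402, 7926 and 9195 units in pools 1 to 4, and ACTA2 and LUM carried most of it: the other 9 markers summed to between 581 and 637 units in every pool. FSHR and CYP11A1 were also higher in pools 1 and 2, and the part of stroma RNA in those results was not tested. None of 8 endothelial markers exceeded 10 times the negative controls, and PECAM1 was at the floor in all pools. None of 6 erythroid markers did, and HBM was at the floor.

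Leukocyte markers had the lowest median percentile, 22.4. ITGAM, CSF1R, TYROBP and CD79A were detected in none of the 8 channels. PTPRC, the pan-leukocyte surface phosphatase, was the exception and read 8.85, 7.68, 10.72 and 10.44. Its other probe was at the floor in all 4 pools. The summed intensity of the 11 markers was 978, 714, 2255 and 1917 units in pools 1 to 4, and PTPRC alone carried the difference: the other 10 summed to between 509 and 565 units in every pool. The heart troponin gene TNNI3 was the 1 gene of other organs above 10 times the negative controls, at 10.42, 10.97, 9.81 and 9.73, and all 4 of its probes read highest in pool 2.

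Oocyte transcripts were measured in pool 2. The zona pellucida gene ZP2 read 5.35, 9.67, 5.63 and 5.53, the maternal factor DPPA3 5.30, 9.31, 5.63 and 5.54, and ZAR1 5.30, 8.32, 5.63 and 5.52. In the other 3 pools these genes were at or near the floor, so no fold is given. ZP4 read 5.83, 8.49, 5.85 and 5.95, the oocyte growth factor GDF9 5.49, 7.05, 5.70 and 5.66, and BTG4, which directs maternal transcript decay, 5.62, 9.72, 5.88 and 5.66. FIGLA, NLRP9 and ZAR1L, which were picked after their values were seen, stood out in pool 2 by 2.56, 3.22 and 2.99 log2 units over the next pool.

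The signal was not seen at the brightest probe of every oocyte gene. BMP15 read 6.55, 6.83, 6.76 and 6.76, ZP3 5.75, 5.87, 6.07 and 6.14, and NLRP5 between 5.58 and 5.86. Of the dimmer ZP3 probes, 1 read 5.80, 5.89, 5.93 and 5.88. The dimmest ZP3 probe read 6.12 in pool 2 and was at the floor in pools 1, 3 and 4. The other probes of ZP2 and DPPA3 read 5.79 and 5.69 in pool 2, against its floor of 5.37. Of 15 oocyte markers with a probe, 6 stood more than 1 log2 unit above every other pool in pool 2, and the summed scaled intensity of the 15 was 1069, 3576, 1111 and 1122 units in pools 1 to 4. ZP2, DPPA3, ZAR1 and GDF9 failed the filter of 3 pools and were not tested, and BTG4, ZP4 and FIGLA passed it. ZP4 and FIGLA differed between the 4 pools but no longer did without pool 2 (limma adjusted p = 0.29 and 0.55), nor did ZAR1L (0.18) or SOD1 (0.29). These retests left out the pool in which the genes stood apart, so they add no support of their own. Across all kept genes, 55 stood in pool 2 more than 1 log2 unit above the other pools, and 175 did so in pool 1, 9 in pool 3 and none in pool 4. The part of oocyte RNA in other results of pool 2, such as STAR and SOD1, was not tested.

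The 4 pools differed over much of the array. The median SD between pools was 0.17 log2 units over kept probes, against a median residual SD of 0.07 for a channel, and 20741 of 30815 probes tested (67.3%) passed the pool test. The spread was wider at bright probes: over 10 bins of equal size, ordered by brightness, the median SD ran from 0.10 near the dim end to 0.37, with 0.32 in the brightest bin. Channels of the same pool deviated together: each of the 8 correlated best with the other dye of its own pool, at r between 0.92 and 0.96 over probes, as a description. Same-numbered arrays lay in the same area of both slides, so pool and array position cannot be told apart.

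Pools 3 and 4 were close to each other. Only 48 of 30874 probes lay over 2-fold apart between them, against 1001 between pools 1 and 2, 2052 between pools 2 and 4, 2279 between pools 1 and 4, 2726 between pools 1 and 3 and 2914 between pools 2 and 3. They were still distinct in the same limma fit, in which 4114 probes (13.4%) passed between pools 3 and 4 at an adjusted p under 0.05, against 12320 (40.0%) between pools 1 and 2, 13700 (44.5%) between pools 2 and 4, 16187 (52.5%) between pools 2 and 3, 16376 (53.1%) between pools 1 and 4 and 18345 (59.5%) between pools 1 and 3.

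**Figure D3:**
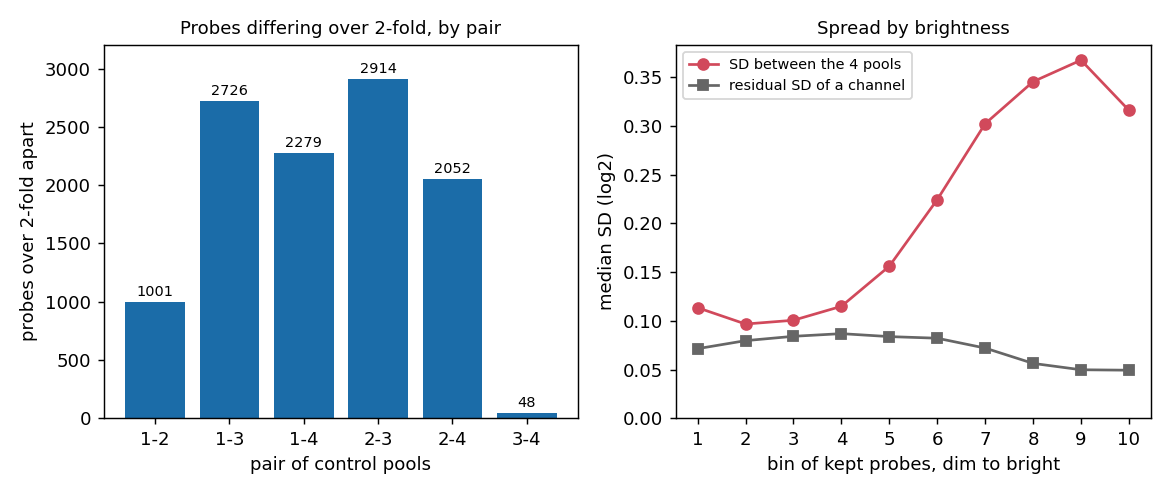
Left, number of kept probes over 2-fold apart (y axis) for each pair of control pools (x axis). Right, median SD between the 4 pools and median residual SD of a channel in log2 units (y axis) for 10 bins of kept probes from dim to bright (x axis). Pools 3 and 4 differ at 48 probes and the other pairs at 1001 to 2914, and the pool SD lies at 0.11 in the dimmest bin and 0.32 in the brightest, with a peak of 0.37.

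The genes with the widest range between pools were nearly all high in pools 3 and 4. NOL9, a nucleolar kinase, read 5.62, 5.60, 10.09 and 9.55 (limma adjusted p = 9.1e-06). The calcium channel gene CACNA1E read 5.90, 5.55, 10.02 and 9.63, the crystallin genes CRYBB1 6.70, 6.06, 10.39 and 9.94 and CRYGD 6.42, 5.74, 9.87 and 9.48, and the potassium channel gene KCNS1 5.93, 5.91, 10.04 and 9.11. SMARCD2, RAB27A, ERP27, AQP11, MASP1 and CLDN11 had the same 2 pools on top. BTG4, high in pool 2, was the exception among the 12 genes with the widest ranges. These genes include ones better known from lens and brain than from the follicle.

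Both pools 3 and 4 exceeded both pools 1 and 2 by over 2 log2 units at 85 named genes, and 3 genes did the reverse. At a gap over 1 the counts were 268 and 234. For 72 of the 268 genes another probe was kept, and none of these 110 other probes had a gap over 1 (46 had one over 0), with a median gap of -0.05 against 1.49 for the brightest probes. The other genes had no second kept probe to compare. For the 234 genes higher in pools 1 and 2, 16 of 88 other probes had a gap over 1, with a median of 0.25. Because a gene stood for its brightest probe, other probes were dimmer by construction. RAB27A illustrates the difference: its brightest probe read 6.96, 6.37, 10.46 and 10.09, and the other probes read between 6.42 and 7.17. Named probes made up 37.7% of the 247 probes with a gap over 2 in favour of pools 3 and 4 and 52.7% of all kept probes. IDH3G, GPI, NDUFA9, FDPS and ATP5O were among the genes higher in pools 1 and 2, and were chosen after their values were seen, apart from those of the lists above. The dimmer probes of IDH3G and FDPS also had pools 1 and 2 on top, and that of GPI did not.

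**Figure D4:**
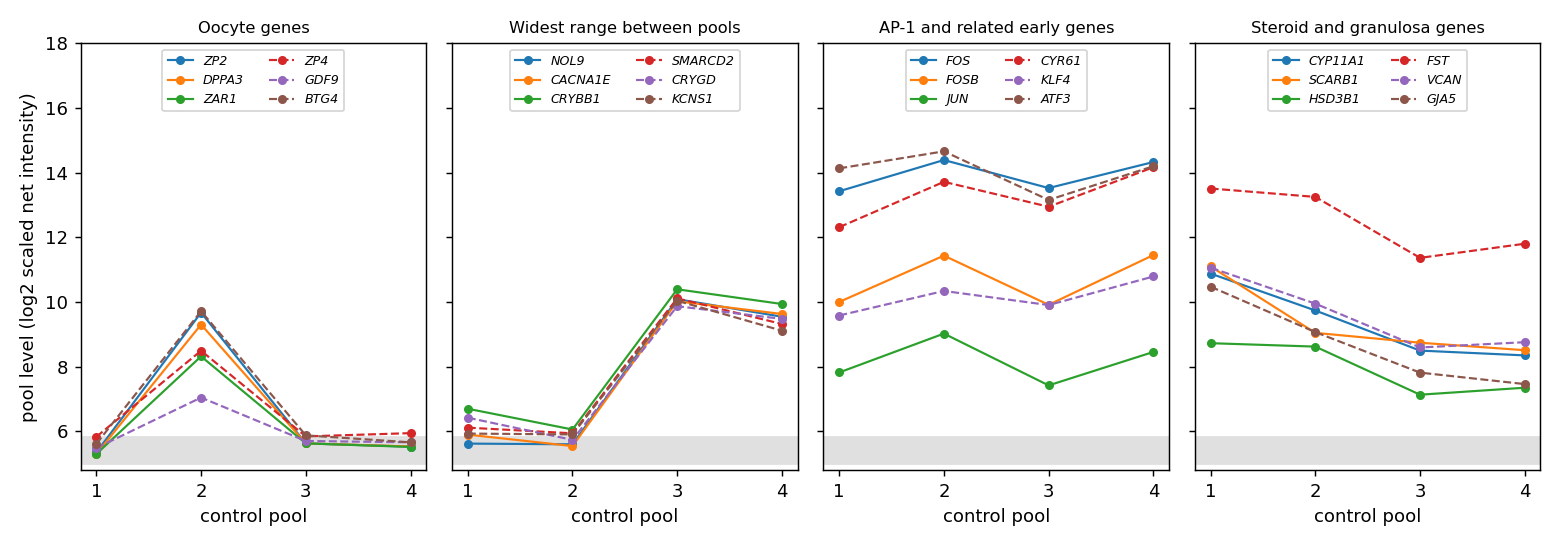
Pool levels in log2 scaled net intensity (y axis) of 24 genes in the 4 control pools (x axis), 6 genes per panel, with the channel floors in grey. Oocyte genes stand above the floor in pool 2 and the genes with the widest range in pools 3 and 4, FOS and FOSB are higher in pools 2 and 4, and the steroid and granulosa genes are highest in pool 1.

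Genes used as references for quantitative PCR also differed between pools. Of 13, 11 passed the test, 4 of them with a range over 1. Over all named genes tested these shares were 73.0% and 19.0%. The median level of the 13, 11.09, lay in the brightest bin, where 93.3% of probes passed. ACTB read 12.48, 11.35, 9.92 and 10.61, a range of 2.56 log2 units, and PGK1 14.44, 15.01, 13.79 and 13.99. HPRT1 read 12.93, 12.93, 13.12 and 12.96 and B2M 12.58, 12.74, 12.62 and 12.76, and these did not pass (limma adjusted p = 0.069 and 0.062). The smallest SDs among genes detected in all 8 channels with levels above the median probe were those of LDHA (0.01), RAB40C (0.01), OAT (0.01) and GABRD (0.02). LDHA and OAT lay at the bright end, where the range of values was narrow, and RAB40C and GABRD were dim, at 1.96 and 2.29 times the negative controls.

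The bright end of the scale was limited. The highest mean foreground of a channel was between 37141 and 40104 intensity units in all 8 control channels, in both dyes, and the highest spot median reached 65535, the largest value of a 16-bit reading. Between 28 and 58 probes per channel exceeded a mean foreground of 30000, and 109 did so in at least 1 channel. For the 9 probes above it in all 8 channels, Cy5 and Cy3 readings before scaling were equal (median log2 difference 0.01), whereas the next 891 probes read lower in Cy5 by a median of 0.73. The median SD between pools was 0.05 for those 9 and 0.28 for the 891. Pool and dye differences of INHBA, LDHA, HSPA5, PDIA6, GEM, NR4A1 and the brightest ribosomal genes are therefore bounded by the range of the readings, and a p that missed the threshold there does not show equal transcript levels.

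The 2 dyes ordered the probes alike. Over kept probes the Pearson correlation between the Cy3 and Cy5 channels of a pool was 0.991 to 0.993, and Spearman's rho was 0.958 to 0.967, across probes that share slide and print and are not independent. At most 1.54% of probes lay over 2-fold apart in any pool. In the paired limma fit 7045 of 30874 probes (22.8%) were higher in Cy5 and 16982 (55.0%) higher in Cy3.

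The direction followed brightness. The median of Cy5 minus Cy3 was -0.59 log2 units in the dimmest of these 10 bins and 0.30 in the brightest, with the same trend in each pool. The split of calls depended on the scaling: 29.3% of the calls were higher in Cy5 with 75th-percentile scaling, 83.1% with median scaling, 68.6% with normexp, 47.3% with quantile normalization, 32.0% with negative controls subtracted and 62.4% among probes detected in all 8 channels. Each slide held 1 orientation of the dyes, so dye and slide cannot be told apart.

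The 8 named genes with the largest excess in Cy5 were bright. They were ribosomal genes, the cytoskeletal gene ACTG1 and genes known only by a LOC symbol. RPS16 was 2.34 ± 0.20 (SD, n = 4 pools) log2 units higher in Cy5, RPS21 2.24 ± 0.27, RPS13 2.14 ± 0.07 and ACTG1 2.05 ± 0.21. Their mean foreground in Cy5 exceeded 30000 in all 4 channels for RPS16, RPS13 and ACTG1 and in 2 for RPS21, so the range of the readings bounds these differences too. The largest excess in Cy3 was at dim probes, with FASTK at -1.61 ± 0.04 and RND2 at -1.47 ± 0.15. MPST was also lower in Cy5, but its 4 Cy5 readings were at the channel floors, so no size is given. HAS2 differed by 0.00 and SCARB1 by 0.01 between the dyes.

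**Figure D5:**
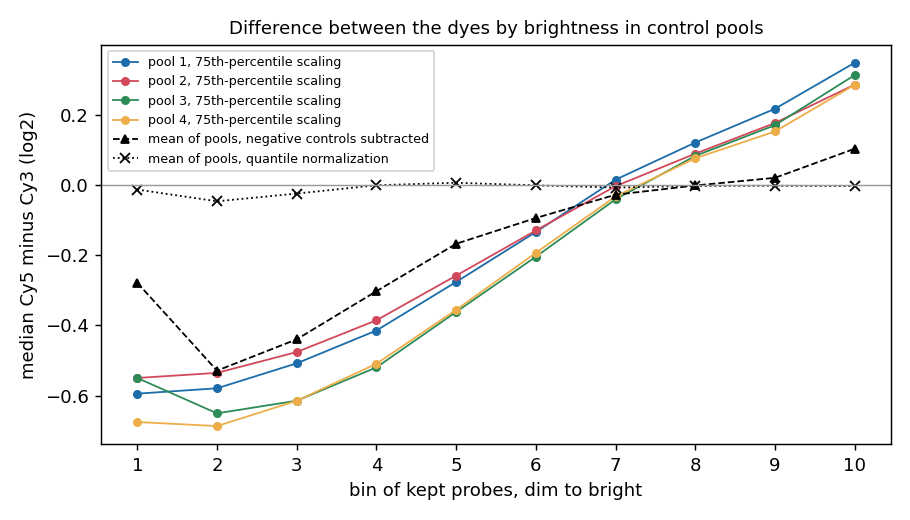
Median difference of Cy5 minus Cy3 in log2 units (y axis) for 10 bins of kept probes from dim to bright (x axis), for each control pool with the scaling used throughout and for the mean of pools under 2 alternatives. The difference runs from below 0 at dim probes to above 0 at bright probes in all 4 pools, with -0.59 and 0.30 in the outermost bins over the mean of pools, and lies near 0 after quantile normalization. The unequal channel floors enter the value of the dimmest bin.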

How the data were processed

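The 8 arrays were Agilent slides hybridised with 2 dyes. Per the labels' protocols, PicoPure total RNA went through 2 rounds of T7 amplification before ULS coupling of the dyes, and each control pool was hybridised once in each dye. The deposited intensity values are, per the file headers, the mean foreground, the median foreground and the median local background of each spot, neither background-subtracted nor normalized by the authors. The scanner and its quantification software are not given in the sources used here. The authors' normalized ratios give no level of 1 channel and were not used.

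From these intensities the median background was subtracted from the mean foreground, ignored spots (9 to 29 per channel) were left out, and each channel was scaled to a common 75th percentile of its 43794 gene probes. Values were floored at the mean plus 2 SD of 153 negative control spots and taken as log2. After background subtraction the negative controls still averaged 66.9 to 79.8 units in Cy3 and 17.8 to 19.3 in Cy5, which compresses differences at dim probes. The number of arrays limits the precision, and 13 probes printed 10 times had a median CV of 4.14% to 11.7% per channel. Genes were named from the platform annotation: 21790 probes had 1 symbol, 22004 none and 0 several. Of 15229 symbols, 12516 are in the RefSeq table of the species.

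Differences between pools were tested with limma 3.58.1 in R 4.3.3 as an F test over pools with dye in the model, so that the 2 labellings of a pool set the error, and differences between dyes as a paired fit of Cy5 minus Cy3 over the 4 pools, both with Benjamini-Hochberg adjustment over all kept probes and a threshold of 0.05. A probe with an ignored spot was not tested between pools. The pairing comes from the labels, which give the 2 arrays of a pool the same number, and each of the 8 control channels correlated best with the other dye of its pool. Both fits were also run on simulated data with independent normal errors. The simulation had no channel floors, no upper limit and no correlation between probes, so it does not test the fits under those features.

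Genes were named in the text by a rule: the markers, the 20 brightest genes, the first 8 genes of each list with its highest and lowest, the 12 widest ranges between pools, the 8 largest dye differences in each direction and the 10 smallest SDs. Genes outside it, chosen after their values were seen, are ALAS1, ATF3, ATP5O, AXL, BAMBI, BMP2, CALR, CD79A, CYR61, DUSP1, FIGLA, GFRA1, HIST3H2A, ID2, IDH3G, KLF4, LUM, NLRP9, PAPPA, PRL, RPL8, SCARB1, SERPINE2, TAGLN, TYROBP and ZAR1L. The members, gene lists and tests were chosen with earlier results of these data known. Alternatives were normexp with an offset of 50, median scaling, quantile normalization, other filters and floors, each dye alone, no scaling, the mean over probes and leaving out each pool. Subtracting the negative control mean, and leaving out the highest negative spot, were added after seeing the data.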

Additional observations from a re-analysis of the deposited data

Results flagged for a closer look

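Levels of 1 pool standing apart from the other 3, by Dixon's criterion at the 95% level, were found for 20 of 167 genes named here, where chance gives about 1 in 20 and 4.77% of all kept genes did. In pool 2 these were the oocyte genes BTG4 at 9.72, DPPA3 at 9.31, FIGLA at 8.98, GDF9 at 7.05, NLRP9 at 9.07, ZAR1 at 8.32, ZAR1L at 8.84, ZP2 at 9.67 and ZP4 at 8.49, together with SOD1 at 12.47 and KITLG at 6.05. BTG4, FIGLA, NLRP9 and ZAR1L were named because of their level in pool 2, so the number of genes is no measure of frequency.

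Pool 1 was high for HSP90AB1 at 14.20 and RPL8 at 13.62 and low for HNRNPH1 at 14.51 and for RAB40C at 6.17, whose whole range was small. HPRT1 at 13.12 and HNRPDL and LAPTM4B, each at 15.23 and near the top of the scale, were high in pool 3, and NR4A1 at 15.00 and NR5A2 at 11.18 were high in pool 4. The dimmer NR5A2 probes were not high in pool 4. They read 10.42, 9.55, 9.18 and 9.03, and 8.52, 8.13, 7.49 and 7.82. The Cy5 channel of pool 3 stood apart with 41.3% of probes detected, against 75.3% in the next channel, and the Cy5 channel of pool 1 had the lowest net negative control mean, 17.8 units against 19.2 in the next.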

How the results depend on the processing

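The number of probes kept, 30874, stayed within 1.5 times that value under the other detection rules, and so did the number of named genes above the 99th percentile, 281, of which at least 269 were shared under every alternative but the mean over all probes of a gene (194). The counts of probes passing the pool test and the dye test were 20741 and 24027. With no filter they were 33167 and 37178, as more probes were tested. With no dye term 6685 passed the pool test, since dye differences then enter the error. The dye count was 13044 with quantile normalization, 12480 with negative controls subtracted and 11265 among probes detected in all 8 channels. Without the replicate block, that is with the pairing of the 2 dyes of a pool dropped, it was 13343, and 8.26% of those calls were higher in Cy5. Leaving out each pool gave 15499 to 20522 for pools, 22439 to 22915 for dyes and 279 to 283 genes above the 99th percentile. The median SD between pools, 0.17, was 0.31 with negative controls subtracted, 0.28 among probes detected in all 8 channels, 0.24 without the Cy5 channel of pool 3, and 0.14 to 0.18 with each pool left out. The dye difference of CYP19A1, -0.15, turned to 0.37 with median scaling, and that of INHBA, 0.95, to -0.27 with quantile normalization. The cause of these changes was not tested, other than where stated. For pool tests of single genes, 1736 repeats kept the call, 112 lost it and 32 gained it. Low signal over background limits dim probes, and the top of the scanner range limits bright ones.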

Other observations

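Pool 1 alone was high for ALAS1, the first enzyme of haem synthesis, at 9.55, 6.98, 6.43 and 6.44, and pool 3 was highest for the receptor kinase AXL, at 6.91, 7.26, 9.99 and 8.40, both picked as the genes that stood apart most in those pools. Probes without a gene name were a large part of the signal. Of the 100 brightest probes 74 were named and of the 1000 brightest 710. Named probes were kept in 74.6% of cases and unnamed probes in 66.4%.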
